A study of Mus musculus with 20 samples.

Results

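The transcripts described here encode proteins of the splicing machinery in mouse fibroblasts heated with and without heat shock factor 1. A gene was taken when its symbol in the platform's probe table starts with Srsf, Sfrs, Hnrnp, Hnrp, Snrp, Sf3a, Sf3b or U2af and a probe listed it alone. The rule reads symbols only, and it was set with earlier results of these data known. It gave 48 genes of the 10843 named by such probes, and all 48 were among the 10625 genes tested. They fell into 8 SR protein genes, 18 hnRNP genes, 11 snRNP protein genes, and 11 genes of the SF3 and U2AF complexes.

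SR proteins carry stretches rich in serine and arginine, bind exons and recruit the splicing machinery to weak splice sites. The hnRNP proteins coat nascent transcripts and often oppose SR proteins in the choice of exons. The snRNP proteins form the core particles of the spliceosome around small nuclear RNAs, and the SF3 and U2AF complexes recognise the branch point and the 3' end of the intron. Splicing is among the steps of gene expression that heat disturbs, and several SR genes control their own messages through exons that lead to decay of the transcript.

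Fibroblasts of 2 genotypes were used, HSF1 +/+ (called WT here), which have heat shock factor 1, and HSF1 -/- (called KO), which lack it; strain, age and the number of clones behind each genotype are not given in the sources used here. This factor induces chaperone genes when cells are heated. Unheated cells (0 h) gave 3 arrays per genotype, and a single array per genotype covered every time of heat shock: 0.5, 1, 2, 3, 4, 6 and 8 h. Here early means the 3 arrays of a genotype up to 2 h, and late means its 4 arrays from 3 h on, so the spread within a window includes change over time. Each of the 20 spotted arrays compared the sample (Cy5) with a common pool of messenger RNA from fibroblasts heated for 1 h and unheated ones (Cy3). A level below is the log2 ratio of sample to pool after each array was centred on its median. It cannot be set against the level of another gene, and in a culture it does not tell fewer cells of a type from less RNA per cell. Levels on heated arrays are listed in the order 0.5, 1, 2, 3, 4, 6 and 8 h.

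Hsf1 had 0 probes that listed it alone, so the targeted gene was not checked. The heat-inducible chaperone gene Hspa1a was higher by 5.83 ± 0.75 (SE; limma adjusted p = 0.00184) in WT late and differed by -0.01 ± 0.75 (SE; limma adjusted p = 0.999) in KO late, from 1 probe. Arrays held 39037 to 42220 values, and r between any pair of arrays, across probes, lay between 0.423 and 0.805. Whether repeated arrays at 0 h stand for separate cultures is not stated in the labels; the p-values therefore measure only the spread between these arrays, which may be technical. Image numbers in the labels run in 1 block per genotype. Image number, clone and genotype therefore cannot be told apart, and whether that number follows the order of the arrays is not known here. At 0 h in WT, mean levels were above 0 for 8 of 9 fibroblast, 4 of 8 macrophage and 4 of 6 muscle markers. The same held for 2 of 8 epithelial and 0 of 4 endothelial markers. After centring, 0 is the array's median and not equality with the pool. Because the pool came from fibroblasts too, these counts do not check the cell label.

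Promoter sequence was at hand from RefSeq (build GRCm38.p6; 250 bases before to 50 after a transcription start) for 41 of the 48 genes, in 54 windows. HSF1 binds repeated units of the bases GAA in alternating orientation, so the windows were searched on both strands for 3 such units in a row: GAA, NN, TTC, NN and GAA, or its reverse complement. This motif contains both pairs of units, GAANNTTC and TTCNNGAA. It occurred in 4 windows of 2 genes, Hnrnpa2b1 and Sf3b2 (7.41% of windows against 0.603% of 32851 windows of all genes). The windows of Hnrnpa2b1 overlap and hold the same site, and so do those of Sf3b2. The 4 windows therefore stand for 2 sites, and the counts of windows here and below include such repeats. Either pair of units occurred in 8 windows (14.8% against 15.1%). The motif CCGGAAG, a core bound by ETS family factors, occurred in 17 windows (31.5% against 8.86%). The 54 windows together were also rich in CG, with a median of 25 CG dinucleotides against 7 in the windows of all genes. Stretches of 150 bases (120 before to 30 after the start) are shown for the 2 genes with 3 units and for Srsf3 and Srsf5, whose transcripts showed the lowest late values below; capitals mark motif matches.
Sf3b2, chr19:5295426-5295575, minus strand: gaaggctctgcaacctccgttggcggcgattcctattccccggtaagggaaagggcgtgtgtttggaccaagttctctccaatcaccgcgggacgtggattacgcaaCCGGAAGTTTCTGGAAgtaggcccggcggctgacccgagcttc
Hnrnpa2b1, chr6:51469816-51469965, minus strand: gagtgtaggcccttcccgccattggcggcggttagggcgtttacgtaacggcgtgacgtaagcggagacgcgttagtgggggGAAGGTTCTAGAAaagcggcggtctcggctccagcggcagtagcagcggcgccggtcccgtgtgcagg
Srsf3, chr17:29032540-29032689, plus strand: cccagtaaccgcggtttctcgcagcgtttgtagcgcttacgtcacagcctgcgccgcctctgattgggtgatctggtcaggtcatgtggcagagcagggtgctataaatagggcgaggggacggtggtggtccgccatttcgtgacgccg
Srsf5, chr12:80945379-80945528, plus strand: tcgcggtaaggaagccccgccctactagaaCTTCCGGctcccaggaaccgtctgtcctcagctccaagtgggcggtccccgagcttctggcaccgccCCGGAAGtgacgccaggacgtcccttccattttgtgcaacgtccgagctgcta

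The 3 units of Sf3b2 run from base -10 to base 3 relative to the start and overlap a CCGGAAG match. Those of Hnrnpa2b1 run from base -38 to base -26. Srsf5 has CCGGAAG at bases -23 to -17 and, on the other strand, at -90 to -84. In the Srsf3 window none of these letters were found. A match describes sequence and shows no binding.

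Late in heat shock, transcripts of the splicing machinery were mostly lower than at 0 h in both genotypes. In the mean of WT and KO, 15 of the 48 fell and 2 rose (limma adjusted p under 0.05), while 13.2% of all genes tested fell and 21.2% changed in either direction. The median of the 48 was -0.24 on the log2 scale, and that of all genes was -0.02. Values lay below 0 for 38 of 48 genes here and for 52% of all genes. When the width of each array's distribution was also scaled, 8 fell and 3 rose, and the median was -0.04. The share of all genes called with that scaling is not given here. At 0 h in WT, 42 of the 48 had mean levels above 0, the array median, against 43.6% of all genes. Scaling an array's width moves all levels above 0 in one direction. Of 9 fibroblast markers, 5 also fell in this comparison, as did 2 of 8 macrophage markers, 2 of 6 muscle markers and 0 of 8 epithelial and 0 of 4 endothelial markers; their part in the result was not tested.

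**Figure D1:**
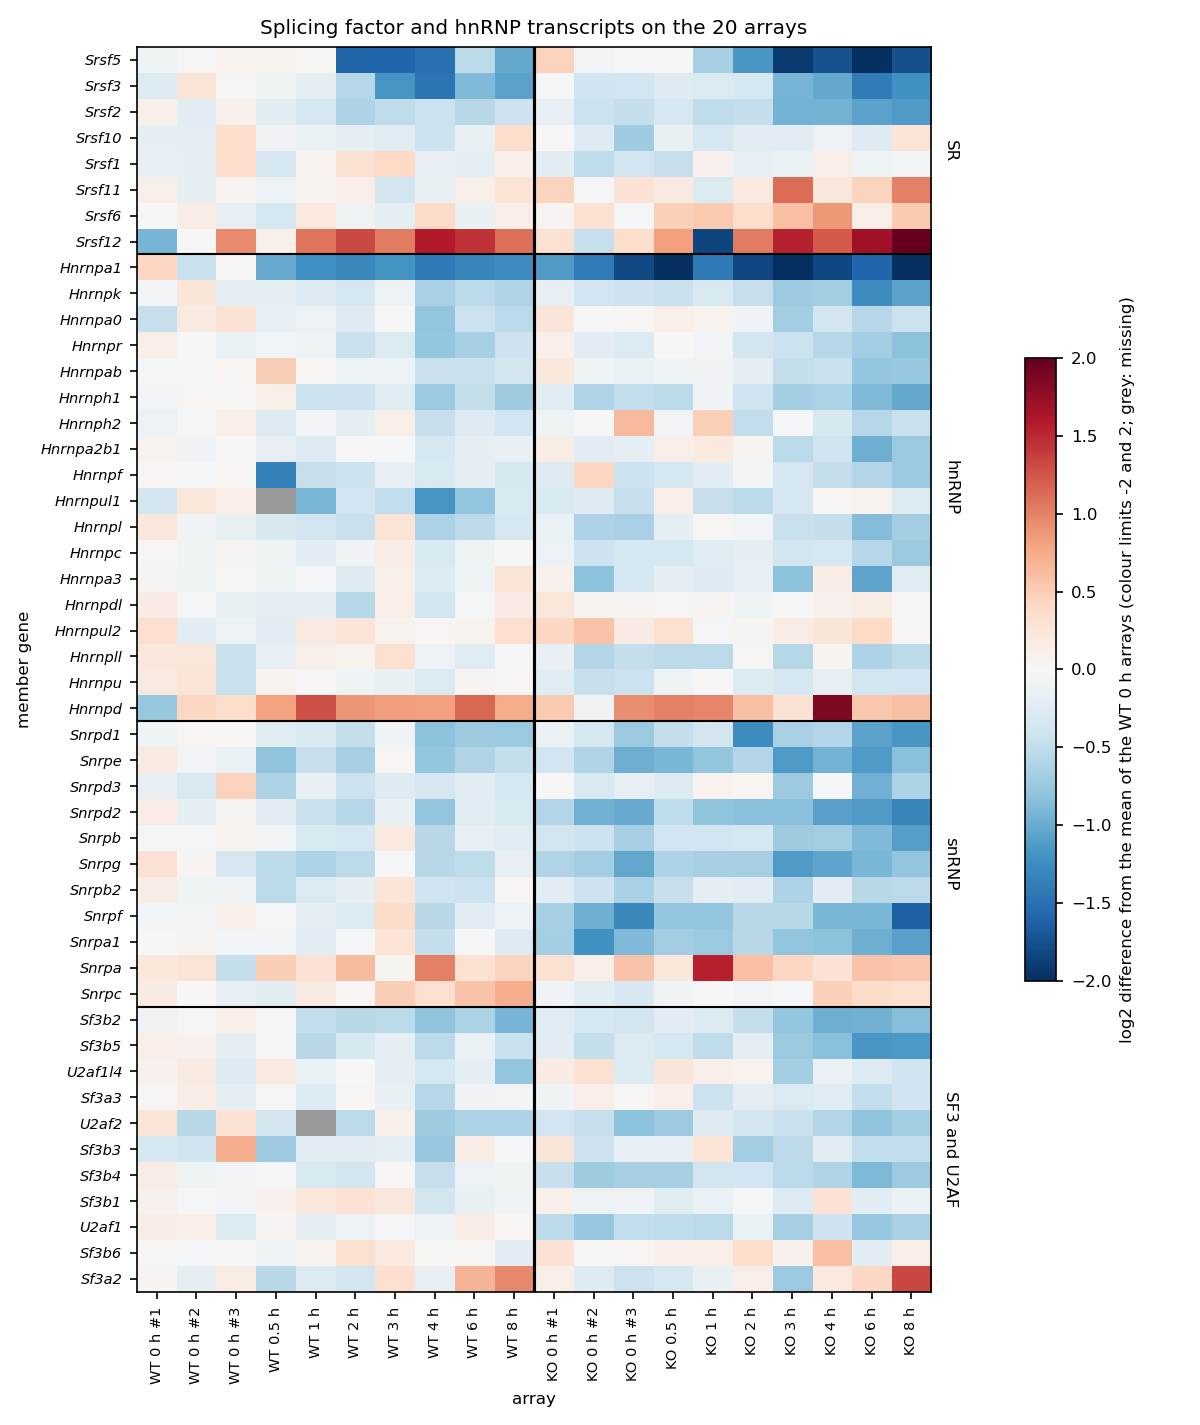
Log2 difference of each of the 48 transcripts (rows, by class) from its mean on the 3 WT 0 h arrays, on all 20 arrays (columns); blue is lower, red is higher, colours stop at -2 and 2, and grey marks missing values. Srsf5 and Srsf3 turn blue in the late columns of both genotypes, and Hnrnpa1 is blue on every array other than WT 0 h.

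Among the SR genes, 3 fell, 1 rose and 4 did not pass the test (50% called, against 21.2% of all genes). The class median was 0.13 (-0.30 with 1 probe per gene). Srsf5, which encodes an SR protein that promotes exon inclusion, had the lowest late value of the 48. Its levels in WT were 2.01, 2.12 and 2.17 at 0 h and 2.17, 2.13, 0.50, 0.52, 0.61, 1.56 and 1.08 after heat shock. In KO they were 2.56, 2.05 and 2.07 at 0 h and 2.10, 1.44, 0.94, 0.19, 0.36, 0.11 and 0.34 after heat shock. From 2 h in WT, and from 1 h in KO, every array lay below the 0 h arrays of its genotype. The late change was -1.57 ± 0.25 (SE; limma adjusted p = 0.000356) in the mean of both, -1.16 ± 0.35 (SE; limma adjusted p = 0.0548) in WT and -1.98 ± 0.35 (SE; limma adjusted p = 0.00199) in KO. The difference between the 2 late changes, 0.82 ± 0.50 (SE; limma adjusted p = 0.684), did not pass the test. In WT the 6 and 8 h arrays lay between the 4 h array and the 0 h arrays, and each was the only array of its time.

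Srsf3, the smallest classical SR protein, which also takes part in export and polyadenylation of messages, fell in both genotypes. WT levels were 1.48, 2.02 and 1.77 at 0 h and 1.66, 1.57, 1.19, 0.58, 0.30, 0.88 and 0.69 after heat shock. KO levels were 1.72, 1.36 and 1.38 at 0 h and 1.49, 1.48, 1.41, 0.82, 0.73, 0.36 and 0.55 after heat shock. All 8 late arrays lay below all 6 arrays at 0 h. The change was -1.15 ± 0.18 (SE; limma adjusted p = 0.00269) in WT and -0.87 ± 0.18 (SE; limma adjusted p = 0.00498) in KO, and all 10 of its probes were lower in each. With Srsf5 it kept its late call in the mean of both genotypes under every alternative tried, as did Hnrnpr, Sf3b2, Sf3b5, Snrpc and Srsf12.

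Srsf2, which binds exons and also acts at transcription, fell less. Its levels were 1.19, 0.88 and 1.20 at 0 h in WT and 0.86, 0.74, 0.47, 0.59, 0.65, 0.53 and 0.68 after heat shock. In KO they were 0.92, 0.66 and 0.62 at 0 h and 0.74, 0.58, 0.61, 0.14, 0.14, 0.01 and -0.05 after heat shock. Late arrays did not overlap the 0 h arrays in either genotype. The late change was -0.57 ± 0.10 (SE; limma adjusted p = 0.000525) in the mean of both, and 7 of its 9 probes were below 0, from -1.22 to 0.14. A pair of probes that list Srsf2 together with the neighbouring gene Mettl23 rose instead, by 0.84 ± 0.17 (SE; limma adjusted p = 0.00195). What each of these probes detects was not tested.

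Srsf12, whose protein represses splicing in some contexts, was the SR gene that rose, by 1.47 ± 0.40 (SE; limma adjusted p = 0.0142) from 1 probe. Its WT levels were -2.34, -1.42 and -0.47 at 0 h and -1.31, -0.34, -0.10, -0.38, 0.17, 0.04 and -0.30 after heat shock. Its KO levels were -1.10, -1.88 and -1.06 at 0 h and -0.60, -3.25, -0.38, 0.13, -0.18, 0.27 and 0.95 after heat shock. Late arrays lay above 0 h arrays in each genotype, although the WT arrays at 0 h differed among themselves by more than the change. Srsf1 and Srsf6, which favour exon inclusion, Srsf10, which becomes a repressor when it loses phosphate in the heat, and Srsf11 had late values from 0.07 to 0.23, none of which passed the test. Srsf1, for example, was at 0.79, 0.51 and 0.63 at 0 h in KO and at 0.54, 1.10, 0.85, 0.88, 1.15, 0.91 and 0.96 after heat shock, all 4 late arrays above the 3 at 0 h, with a change of 0.33 ± 0.20 (SE; limma adjusted p = 0.314). Its 4 probes ran from -0.21 to 1.60 in KO late, 2 of them below 0. In the late mean of both genotypes the probes of each of these genes went both ways. They ran from -0.24 to 1.11 for Srsf1 and from -0.28 to 0.84 for Srsf6. Those of Srsf10 ran from -0.50 to 0.68 and those of Srsf11 from -0.27 to 1.04.

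**Figure D2:**
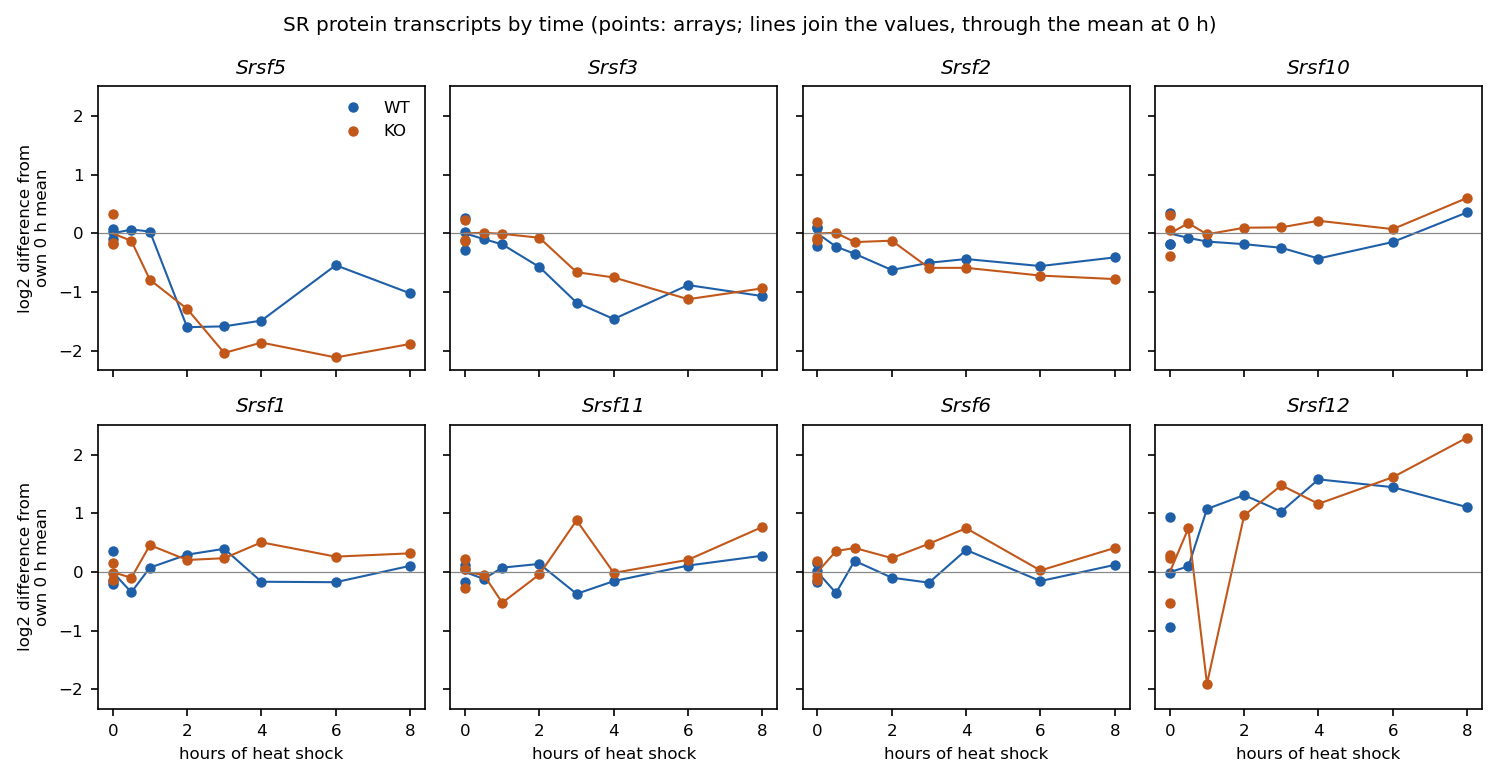
Log2 difference of the 8 SR transcripts from the 0 h mean of their own genotype (vertical axis) against hours of heat shock (horizontal axis); each point is 1 array, blue for WT and orange for KO, and lines join the arrays through the mean at 0 h. Srsf5, Srsf3 and Srsf2 lie below 0 on all late arrays of both genotypes, and Srsf12 lies above 0 on all of them.

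Of the 18 hnRNP genes, 7 fell and 0 rose in the late mean of both genotypes (38.9% called, against 21.2% of all genes). The class median was -0.29, and 17 of 18 values were below 0. The class median was also below 0 without centring (-0.23), after quantile normalization (-0.28) and with array width scaled (-0.10). Hnrnpa1 encodes an abundant protein that represses exons and leaves the nucleus under stress. Its single probe was at 3.94, 3.08 and 3.56 at 0 h in WT and at 2.52, 2.30, 2.23, 2.33, 2.11, 2.22 and 2.27 after heat shock. In KO it was at 2.40, 2.13 and 1.72 at 0 h and at 1.48, 2.12, 1.71, 1.31, 1.70, 1.94 and 1.27 after heat shock. All 7 heated WT arrays lay below the 3 WT arrays at 0 h, and the 0.5 h array was already there. The late change was -1.29 ± 0.22 (SE; limma adjusted p = 0.00378) in WT and -0.53 ± 0.22 (SE; limma adjusted p = 0.144) in KO, and their difference, -0.76 ± 0.31 (SE; limma adjusted p = 0.515), did not pass the test. Hnrnpa1 has many near-identical copies in the genome, so its value is uncertain: 3 probes that list it with one such copy, Gm10052, had a late WT change of -0.38 ± 0.21 (SE; limma adjusted p = 0.279).

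The other 6 were Hnrnpk, a protein that binds runs of cytosine, Hnrnpa0, Hnrnpr, Hnrnpab, Hnrnph1, which binds runs of guanine, and Hnrnpa2b1. Hnrnpk was at 1.78, 2.08 and 1.65 at 0 h in WT and at 1.65, 1.58, 1.49, 1.73, 1.19, 1.30 and 1.24 after heat shock. In KO it was at 1.67, 1.46 and 1.42 and then at 1.38, 1.52, 1.38, 1.10, 1.15, 0.58 and 0.77. The late arrays of KO lay below those at 0 h, and the WT 3 h array overlapped them, with changes of -0.62 ± 0.17 (SE; limma adjusted p = 0.0262) in KO and -0.47 ± 0.17 (SE; limma adjusted p = 0.101) in WT. Hnrnpr was at 0.99, 0.85 and 0.72 at 0 h in WT and at 0.79, 0.76, 0.41, 0.56, 0.09, 0.19 and 0.45 after heat shock. Its KO levels were 0.95, 0.64 and 0.58 and then 0.87, 0.80, 0.49, 0.42, 0.29, 0.18 and 0.04. Late and 0 h arrays did not overlap in either genotype, and the mean change was -0.51 ± 0.12 (SE; limma adjusted p = 0.00496).

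Hnrnpab, which binds AU-rich messages, was at 0.80, 0.83 and 0.88 at 0 h in WT and at 1.33, 0.88, 0.75, 0.72, 0.39, 0.40 and 0.47 after heat shock. Its KO levels were 1.04, 0.75 and 0.70 and then 0.76, 0.77, 0.64, 0.36, 0.39, 0.06 and 0.08. All late arrays lay below their 0 h arrays, and the change in KO was -0.61 ± 0.16 (SE; limma adjusted p = 0.0182). Hnrnpa0 was at 0.82, 1.45 and 1.56 at 0 h in WT and at 1.11, 1.16, 1.02, 1.27, 0.48, 0.84 and 0.74 after heat shock, where the groups overlapped. In KO it was at 1.54, 1.26 and 1.29 and then at 1.40, 1.34, 1.21, 0.59, 0.91, 0.71 and 0.85, where they did not, and the mean change was -0.52 ± 0.13 (SE; limma adjusted p = 0.0109). With 1 probe per gene, Hnrnpa0 and Hnrnpab both lost their late call in the mean of both genotypes. Hnrnpa2b1, whose promoter holds 3 units of the HSF1 motif, had a late change of -0.58 ± 0.15 (SE; limma adjusted p = 0.0184) in KO and -0.18 ± 0.15 (SE; limma adjusted p = 0.494) in WT. Its 4 probes ran from -1.04 to 0.00 in the mean of both genotypes, and with 1 probe per gene its value was 0.004. Hnrnph1 changed by -0.45 ± 0.13 (SE; limma adjusted p = 0.0168) from 1 probe, and by 0.41 when its second, sparser probe was added.

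The hnRNP gene with the highest late value was Hnrnpd, which encodes the AU-rich element binding protein AUF1. Its levels were -1.70, -0.53 and -0.59 at 0 h in WT and -0.13, 0.35, -0.06, -0.10, -0.11, 0.21 and -0.20 after heat shock. In KO they were -0.42, -1.01 and -0.01 and then 0.06, 0.04, -0.33, -0.65, 0.93, -0.41 and -0.34. WT arrays after heat shock lay above the 0 h arrays, of which replicate 1 stood lowest, and the KO groups overlapped. The late value was 0.62 ± 0.24 (SE; limma adjusted p = 0.0754). The remaining 10 hnRNP genes, among them Hnrnpc, Hnrnpu and Hnrnpl, had late values from -0.39 for Hnrnph2 to -0.01 for Hnrnpu, and none passed the test.

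Of the 11 snRNP genes, 2 fell and 1 rose in the late mean of both genotypes (27.3% called, against 21.2% of all genes). The median was -0.25 (-0.02 with array width scaled), and 9 of 11 values were below 0. Snrpd1 and Snrpe encode Sm proteins of the ring that every spliceosomal snRNP shares, and Snrpc encodes a protein of the U1 particle. Snrpc was at 0.59, 0.41 and 0.26 at 0 h in WT and at 0.21, 0.60, 0.44, 0.91, 0.75, 0.99 and 1.14 after heat shock. In KO it was at 0.35, 0.21 and 0.10 and then at 0.34, 0.42, 0.36, 0.39, 0.90, 0.78 and 0.75. All late arrays lay above the 0 h arrays of their genotype, with a mean change of 0.51 ± 0.11 (SE; limma adjusted p = 0.00313). Its 3 probes did not move together, from -0.35 to 1.29. Snrpd1 was at 0.91, 1.03 and 1.03 at 0 h in WT and at 0.75, 0.69, 0.52, 0.93, 0.17, 0.28 and 0.24 after heat shock. In KO it was at 0.86, 0.65 and 0.25 and then at 0.52, 0.62, -0.27, 0.35, 0.41, -0.09 and -0.17, and the mean change was -0.52 ± 0.17 (SE; limma adjusted p = 0.0325). The WT 3 h array overlapped the 0 h arrays and the other late WT arrays lay below them. Snrpe was at 1.87, 1.62 and 1.56 at 0 h in WT and at 0.88, 1.22, 1.02, 1.73, 0.91, 1.08 and 1.21 after heat shock, and in KO at 1.29, 1.08 and 0.71 and then at 0.77, 0.90, 1.09, 0.55, 0.74, 0.55 and 0.85. The WT 3 h array overlapped the 0 h arrays. Snrpe changed by -0.40 ± 0.13 (SE; limma adjusted p = 0.0407), and like Snrpd1 it lost its call when any 1 of 9 arrays was left out. The Snrpd1 call was lost in 11 of 28 alternatives, no centring and scaled array width among them, and the Snrpe call in 15 of 28.

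In the SF3 and U2AF group, 3 genes fell and 0 rose (27.3% called, against 21.2% of all genes). The median was -0.26 (-0.09 with array width scaled). Sf3b2 encodes a subunit of SF3B, the complex that holds the branch point, and its promoter carries 3 units of the HSF1 motif. Its levels were 1.10, 1.13 and 1.29 at 0 h in WT and 1.17, 0.69, 0.62, 0.64, 0.37, 0.54 and 0.24 after heat shock. In KO they were 0.94, 0.82 and 0.81 and then 0.96, 0.90, 0.70, 0.40, 0.20, 0.22 and 0.33. All late arrays lay below the 0 h arrays in both genotypes, and in WT the 1 and 2 h arrays did too. The change was -0.73 ± 0.15 (SE; limma adjusted p = 0.00867) in WT and -0.56 ± 0.15 (SE; limma adjusted p = 0.0206) in KO, and 8 of 8 probes were below 0 in WT and 7 of 8 in KO. Sf3b5, a small subunit of the same complex, was at 1.22, 1.18 and 0.91 at 0 h in WT and at 1.09, 0.55, 0.79, 0.91, 0.57, 0.97 and 0.66 after heat shock. In KO it was at 0.90, 0.62 and 0.82 and then at 0.77, 0.60, 0.90, 0.36, 0.28, -0.06 and -0.04, with a change of -0.65 ± 0.17 (SE; limma adjusted p = 0.0191), whereas the WT arrays overlapped and differed by -0.33 ± 0.17 (SE; limma adjusted p = 0.24). U2af1l4, a paralogue of the small U2AF subunit, had a mean change of -0.40 ± 0.13 (SE; limma adjusted p = 0.0374), a call lost in 10 of 28 alternatives. Sf3b1, the subunit that contacts the branch point most directly, was at -0.07, and Sf3a2, the highest of the group, at 0.47 ± 0.24 (SE; limma adjusted p = 0.186) from 1 probe.

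**Figure D3:**
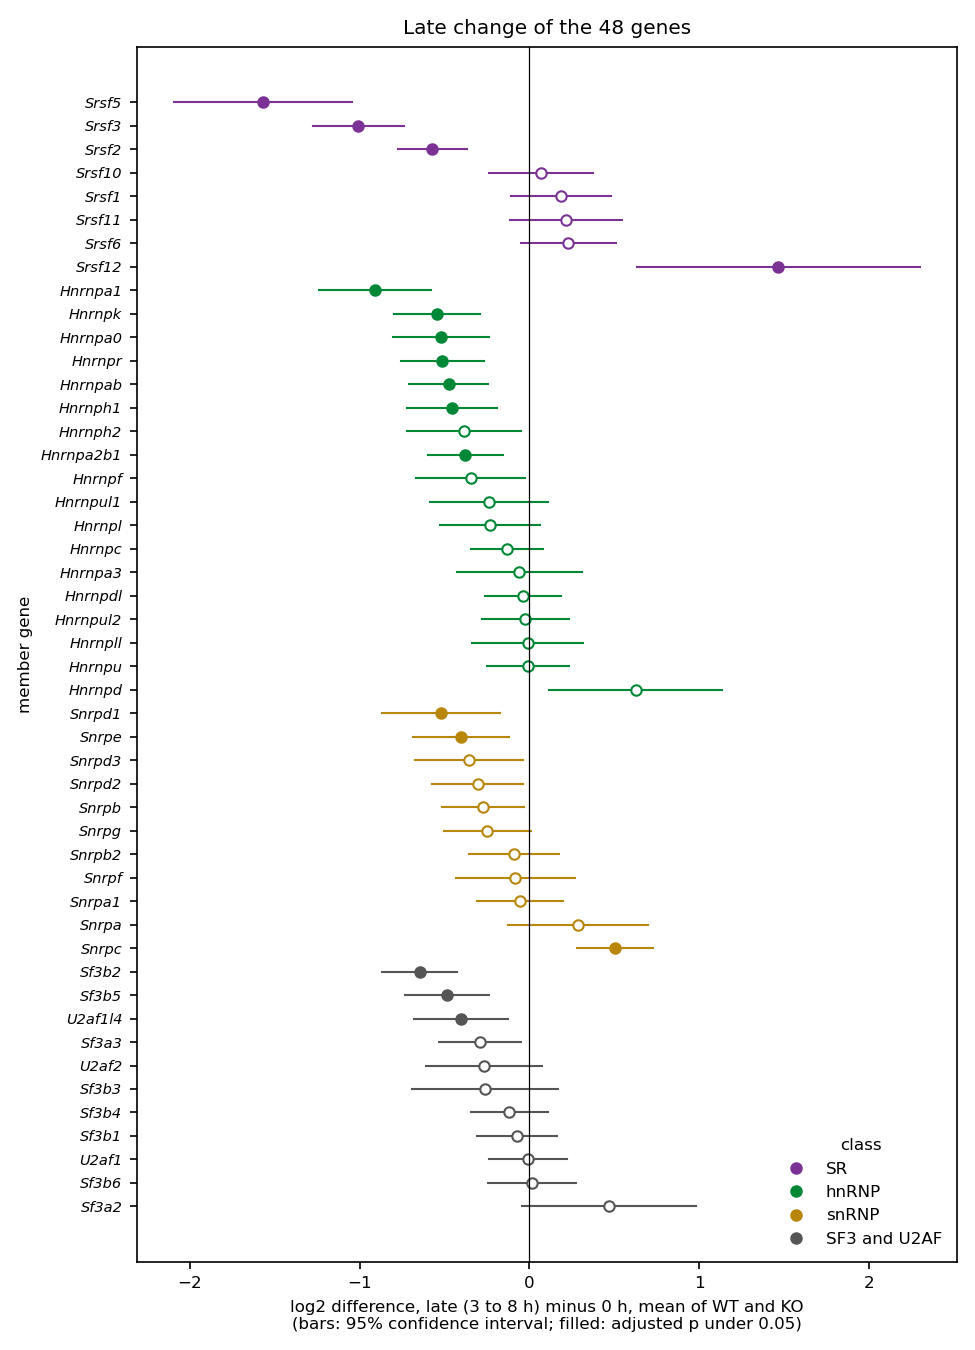
Late change of each of the 48 transcripts (rows, coloured by class): log2 difference of the late window from 0 h in the mean of WT and KO (horizontal axis), with 95% confidence intervals, filled where the limma adjusted p was under 0.05. Srsf5, at -1.57, is farthest to the left and Srsf12, at 1.47, farthest to the right, and 17 of 18 hnRNP genes lie left of 0.

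By genotype, 4 members fell and 1 rose in WT late (3.67% of all genes fell, 7.27% changed), and 8 fell and 0 rose in KO late (6.8% fell, 10.7% changed). The WT calls were Srsf3, Srsf2, Hnrnpa1 and Sf3b2, which fell, and Snrpc, which rose. Of these, the Srsf2 call was lost in 20 of 28 alternatives and the Snrpc call in 16, against 0 for Srsf3 and 1 each for Hnrnpa1 and Sf3b2. Those in KO were Srsf5, Srsf3, Srsf2, Hnrnpk, Hnrnpab, Hnrnpa2b1, Sf3b5 and Sf3b2. Of these, Hnrnpk lost its call in 11, Hnrnpa2b1 in 8, Hnrnpab in 6, Sf3b5 in 5 and Sf3b2 in 4 of 28. Srsf2 lost its call in 1, and Srsf3 and Srsf5 in 0. The medians were -0.20 in WT and -0.18 in KO, the latter 0.06 with array width scaled. Both late changes enter the mean described above, so they are parts of it and not separate evidence. The number of calls rested on single arrays: it fell to 3 in KO without the 0 h replicate 1 or without the 6 h array, to 4 without the 8 h array and to 5 without the 0 h replicate 3. In WT it fell to 3 without any 1 of 7 arrays, of which WT 0 h replicate 3 and WT 8 h belong to the comparison. Shares of all genes called without each array are not given here. Not one of the 48 passed the test for a difference between the WT and KO late changes (limma; 0.0941% of all genes called), and 2 of 48 (4.17%) had an unadjusted p under 0.05, against 8.72% of all genes.

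Within the late window the arrays differed. In WT the hnRNP median, relative to 0 h, was -0.02 at 3 h, -0.41 at 4 h, -0.25 at 6 h and -0.31 at 8 h. The snRNP median in WT was 0.06 at 3 h and -0.55 at 4 h, the highest and lowest of its late values. The hnRNP median in KO was -0.24, -0.17, -0.42 and -0.48 at 3, 4, 6 and 8 h. Each value is 1 array, so an order in time cannot be told from differences between arrays.

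**Figure D4:**
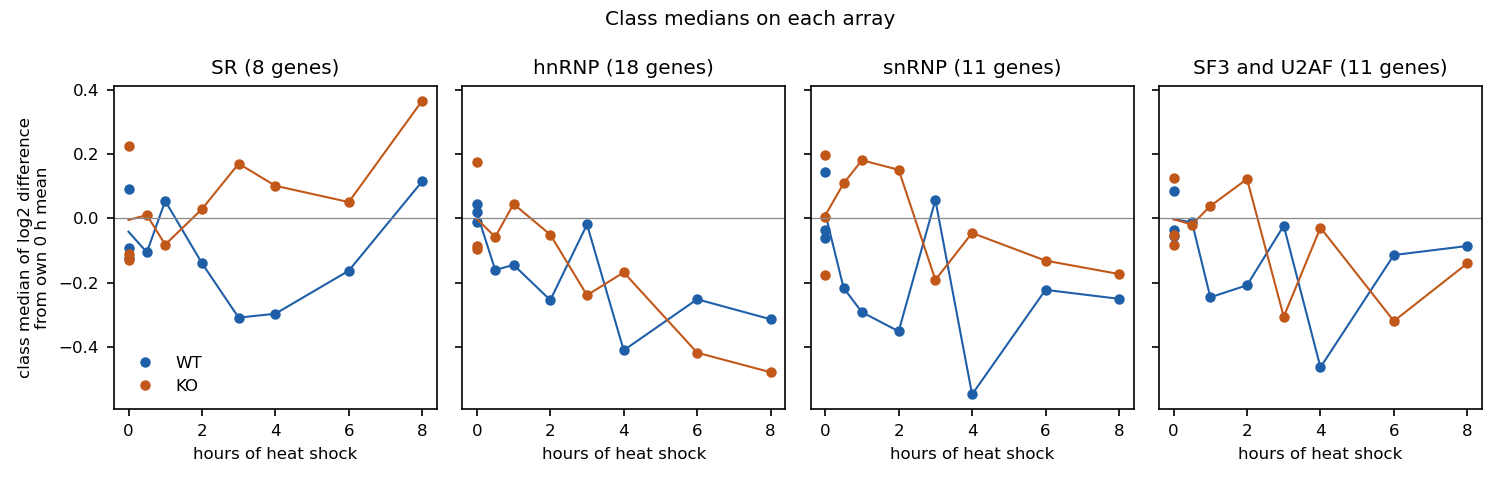
Median over the genes of each class of the log2 difference from the 0 h mean of the same genotype (vertical axis) against hours of heat shock (horizontal axis); each point is 1 array, blue for WT and orange for KO. The WT 3 h array lies at -0.02 for hnRNP and at 0.06 for snRNP genes, and the WT 4 h array at -0.41 and -0.55.

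No member passed the test in the early window: 0 of 48 in WT (0.0376% of all genes called), 0 in KO (0% called) and 0 in the mean of both (0% called), by limma. At an unadjusted p under 0.05 there were 9 members in WT (18.8%, against 11.3% of all genes), 0 in KO (against 7.46%) and 7 in the mean of both (14.6% against 10.2%). In WT the lowest values were Hnrnpa1 (-1.18, 0.112), Hnrnpf (-0.75, 0.274), Hnrnpul1 (-0.65, 0.396) and Snrpe (-0.64, 0.274), each with its log2 difference and limma adjusted p. Hnrnpul1 had no value on the 0.5 h array of WT, so its early value rests on 2 arrays. Hnrnpf, a binder of guanine runs, rested on the 0.5 h array, at 0.09 against 0.97 and 1.02 at 1 and 2 h and 1.47, 1.39 and 1.46 at 0 h. Snrpe was at 1.87, 1.62 and 1.56 at 0 h in WT and at 0.88, 1.22 and 1.02 on the early arrays, which did not overlap. The highest was Hnrnpd (0.99, 0.337). In KO the values ran from -0.73 for Srsf5 (limma adjusted p = 0.692) to 0.45 for Snrpa (limma adjusted p = 0.758). The U1 protein gene Snrpa was at -0.01, -0.19 and 0.25 at 0 h in KO and at 1.23 at 1 h, its highest level on any array. Its 2 probes went in opposite directions early in KO, at -0.47 and 1.38. The early changes of WT and KO differed for 0 of 48 members (limma; 0% of all genes called), and at an unadjusted p under 0.05 for 3 of 48 (6.25%) against 8.37% of all genes. For snRNP genes the early median was -0.34 in WT and 0.14 in KO.

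Before heat shock, several core snRNP transcripts were lower in KO than in WT cells. At 0 h, 7 of the 48 were lower and 0 higher (3.6% of all genes were lower, 6.64% differed): Hnrnpa1, Snrpf, Snrpa1, Snrpd2, Snrpg, Sf3b4 and U2af1. The snRNP median was -0.48, from -0.31 to -0.48 over the scalings, and 10 of 11 snRNP values were below 0. That of the hnRNP genes was -0.21, and 0.03 after quantile normalization. In the same comparison 2 of 8 macrophage markers were lower in KO (median of the list -0.44), 2 of 9 fibroblast markers were higher and 1 lower, and 0 of the epithelial, muscle and endothelial markers passed; their part in the result was not tested. With only the 0 h arrays in the fit, 0 of the 48 passed, and with array width scaled or after quantile normalization 3 did. Shares of all genes called under these settings are not given here. A loss among members is therefore not told apart from a loss over all genes.

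Snrpa1 encodes a protein of the U2 particle. At 0 h it was at 1.34, 1.40 and 1.28 in WT and 0.67, 0.12 and 0.46 in KO, a difference of -0.92 ± 0.18 (SE; limma adjusted p = 0.00441). After heat shock it was at 1.28, 1.12, 1.30, 1.62, 0.87, 1.33 and 1.08 in WT and 0.65, 0.60, 0.79, 0.55, 0.52, 0.36 and 0.25 in KO. All 10 WT arrays lay above all 10 KO arrays. Snrpf, Snrpd2 and Snrpg encode Sm proteins. Snrpf was at 1.37, 1.37 and 1.55 in WT and 0.77, 0.46 and 0.14 in KO at 0 h, a difference of -0.97 ± 0.25 (SE; limma adjusted p = 0.0248) from 1 probe. After heat shock it was at 1.41, 1.24, 1.15, 1.79, 0.88, 1.22 and 1.31 and 0.66, 0.66, 0.88, 0.88, 0.51, 0.52 and -0.21. Its lowest WT array, at 4 h, and its highest KO arrays, at 2 and 3 h, met at 0.88.

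Snrpd2 was at 1.40, 1.07 and 1.31 in WT and 0.68, 0.29 and 0.25 in KO at 0 h, a difference of -0.85 ± 0.19 (SE; limma adjusted p = 0.0112) from 1 probe. After heat shock it was at 1.04, 0.81, 0.68, 1.11, 0.47, 1.02 and 0.96 and 0.75, 0.46, 0.43, 0.43, 0.17, 0.13 and -0.06. The genotypes did not overlap at 0 h or late, where the lowest WT array was that at 4 h, and overlapped early. Snrpg was at 2.01, 1.78 and 1.39 in WT and 1.13, 1.02 and 0.69 in KO at 0 h, a difference of -0.78 ± 0.18 (SE; limma adjusted p = 0.0153). After heat shock it was at 1.21, 1.09, 1.20, 1.72, 1.17, 1.22 and 1.57 and 1.10, 1.06, 1.07, 0.60, 0.68, 0.82 and 0.95, and the genotypes overlapped early and did not overlap late.

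U2af1 encodes the U2AF subunit that reads the end of the intron, and Sf3b4 a subunit of SF3B. At 0 h U2af1 was at 1.31, 1.29 and 0.88 in WT and 0.64, 0.40 and 0.67 in KO, a difference of -0.59 ± 0.16 (SE; limma adjusted p = 0.0369). After heat shock it was at 1.22, 0.96, 1.04, 1.14, 1.04, 1.31 and 1.20 in WT and 0.65, 0.61, 1.03, 0.49, 0.75, 0.41 and 0.51 in KO. Sf3b4 was at 1.41, 1.15 and 1.20 and 0.79, 0.55 and 0.58 at 0 h, a difference of -0.61 ± 0.16 (SE; limma adjusted p = 0.0304), and at 1.22, 0.95, 0.88, 1.28, 0.79, 1.14 and 1.17 and 0.59, 0.88, 0.87, 0.71, 0.66, 0.35 and 0.52 after heat shock. For both, the late WT arrays lay above the late KO arrays. The 0 h call of U2af1 was lost in 10 and that of Sf3b4 in 9 of 28 alternatives. That of Snrpf was lost in 7, Snrpg in 6, Snrpd2 in 2, and Snrpa1 and Hnrnpa1 in 1 each. The difference in Hnrnpa1 at 0 h was -1.44 ± 0.24 (SE; limma adjusted p = 0.00116), and -0.40 ± 0.23 (SE; limma adjusted p = 0.347) on the 3 probes shared with Gm10052.

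**Figure D5:**
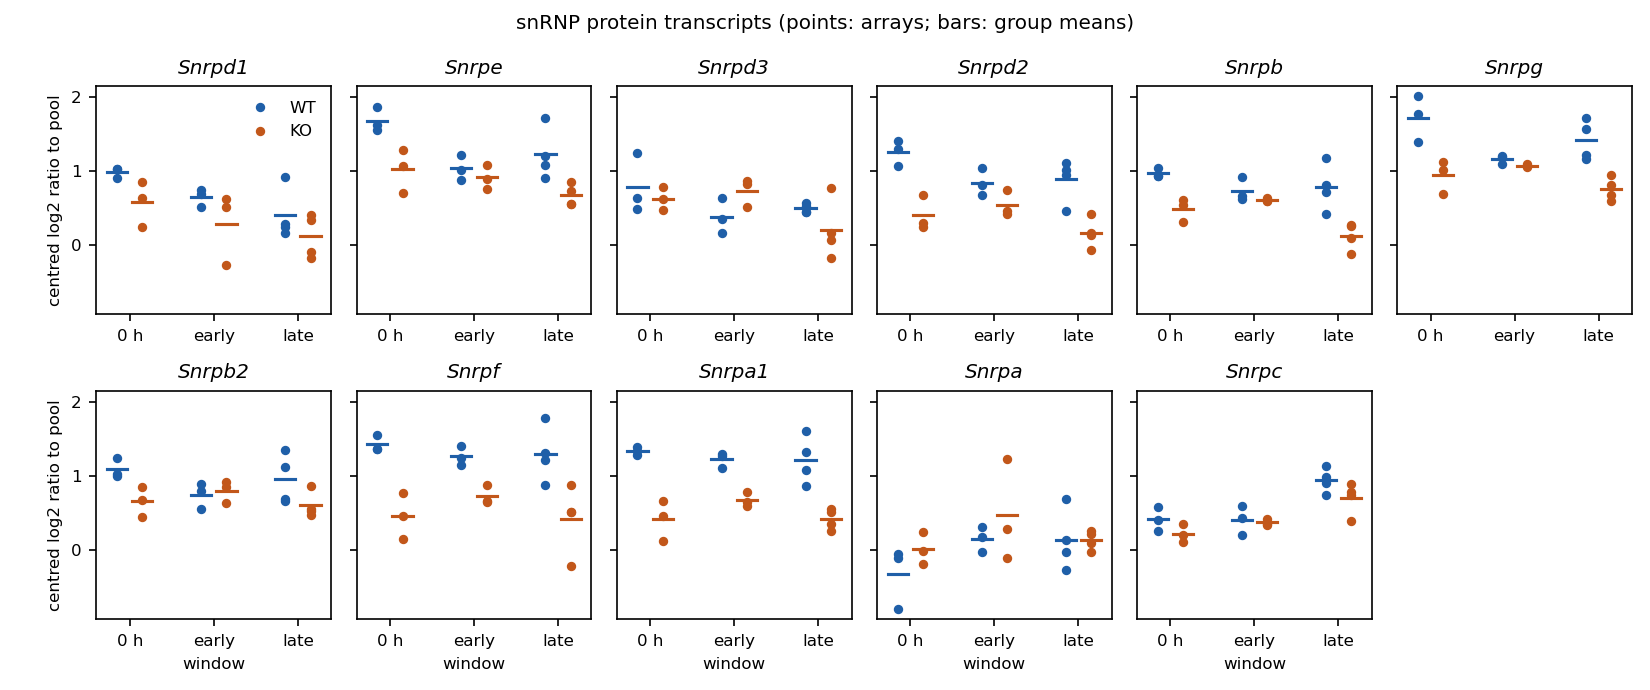
Centred log2 ratio to the pool (vertical axis) of the 11 snRNP transcripts at 0 h, early and late (horizontal axis); each point is 1 array, blue for WT and orange for KO, and bars are group means. WT lies above KO on all arrays for Snrpa1, and Snrpc lies higher late than at 0 h in both genotypes.

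Averaged over the 3 windows, 13 of the 48 were lower in KO and 1 higher (8.51% of all genes lower, 15.7% different). Over the windows 3 of 8 macrophage markers were lower and 1 higher, 2 of 9 fibroblast markers higher and 2 lower, and 2 of 6 muscle markers lower; their part was not tested. The 7 genes above were among the 13, whose 0 h arrays also enter this mean. The others were Snrpe (-0.45, 0.0105), Snrpb (-0.42, 0.00515), Sf3b5 (-0.34, 0.0256), Srsf2 (-0.32, 0.0109), Hnrnpk (-0.31, 0.0442) and Hnrnpc (-0.29, 0.0242), each with its log2 difference and limma adjusted p. The Hnrnpk call was kept in 8 of 27 alternatives and lost without any 1 of 14 arrays. Calls of Hnrnpc and Sf3b5 were lost in 7 of 27 each, that of Snrpe in 3, Srsf2 in 1 and Snrpb in 0. Srsf6 was higher, by 0.38 ± 0.11 (SE; limma adjusted p = 0.0261). The Srsf6 call was lost in 5 of 27 alternatives, scaled array width and 1 probe per gene among them. Snrpb, which encodes the Sm proteins B and B-prime, was at 0.94, 0.94 and 1.05 at 0 h in WT and 0.61, 0.54 and 0.31 in KO, and at 0.92, 0.67, 0.62, 1.18, 0.43, 0.81 and 0.72 and 0.60, 0.59, 0.64, 0.26, 0.28, 0.10 and -0.12 after heat shock. Of 11 snRNP genes 6 were lower, with a median of -0.42. The hnRNP median was -0.13, and 0.02 after quantile normalization and 0.01 with array width scaled. After quantile normalization the calls were 8 lower and 2 higher, and the share of all genes called there is not given here.

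Beside the 48, 115 of 140 listed other genes of splicing were measured: spliceosome subunits, exon junction factors, SR protein kinases and other RNA-binding proteins. Late, in the mean of both genotypes, 25 of them fell and 7 rose (27.8%, against 21.2% of all genes), with a median of -0.24. With limma adjusted p after each log2 difference, the lowest values included Clk1 (-0.94, 0.000363), a kinase that phosphorylates SR proteins, Ddx17 (-0.94, 0.000225), a helicase, Rbm3 (-0.81, 0.000332), a cold-inducible protein, and Snrnp70 (-0.62, 0.0105), the main protein of the U1 particle. Among those that rose were Prpf18 (0.78, 0.00326), Dhx8 (0.65, 0.00104), a helicase that releases the spliced message, and Tra2b (0.54, 0.027), an SR-like protein. In WT late 11 fell and 2 rose (11.3%, against 7.27% of all genes), and in KO late 11 fell and 3 rose (12.2% against 10.7%). At 0 h 6 were lower in KO and 3 higher (7.83% against 6.64%). The lower ones included Sap18 (-1.58, 9.67e-05) and Ddx39a (-0.84, 0.015), and the higher ones were Clk1 (0.87, 0.0264), Ddx17 (0.97, 0.0101) and Ptbp2 (0.89, 0.0463). In the early window none passed the test in either genotype (limma), and at an unadjusted p under 0.05 there were 22 in WT (19.1%, against 11.3% of all genes) and 9 in KO (7.83% against 7.46%).

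Srsf4, Hnrnpm and Snrpn were measured only by probes that list a second gene (Gm12992, Marchf2 and Snurf) and are not among the 48. Their late values in the mean of both genotypes were 0.21 ± 0.13 (SE; limma adjusted p = 0.252), 0.01 ± 0.13 (SE; limma adjusted p = 0.981) and 0.03 ± 0.10 (SE; limma adjusted p = 0.889).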

How the data were processed

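For every probe on an array the authors deposited the log ratio of Cy5 to Cy3, taken here as log2 because the file does not name the base; the largest values exceed what log10 of scanner signals allows, and natural logs remain possible. Background correction and normalization are not given in the sources used here. Each array was centred on its median. Probes of 1 gene were averaged, each relative to its own mean. limma 3.58.1 in R 4.3.3 (lmFit, eBayes) was fitted to all 20 arrays with 6 group means, with Benjamini-Hochberg adjustment over 10625 genes and a threshold of 0.05. The fit was run on simulated data with independent noise, in which planted shifts were the same at all times of the late window. That run checks the estimates and gives no rate of false calls for these arrays. Any member could be named; per-array values were given for members of smallest adjusted p and for extremes of each class. Members and lists were chosen with earlier results of these data known. Comparisons with 0 h share the same 0 h arrays within a genotype. Alternatives were no centring, quantile normalization, scaled array width, other probe rules, only the contrasted groups, a replicate block and leaving out each array. Number of arrays limits the precision.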

Additional observations from a re-analysis of the deposited data

Results flagged for a closer look

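In the late window, 5 of 96 groups of 4 arrays held 1 array far from the other 3 (past the 95% critical value of Dixon's ratio of gap to range), and chance gives about 1 in 20. Hnrnpul2 was at 0.493 at 8 h in WT, against 0.189 to 0.224 on the other late WT arrays. Both Snrpd1, at 0.928 against 0.169 to 0.285, and U2af2, at 1.428 against 0.62 to 0.713, stood high on the WT 3 h array. Hnrnpll, at 1.503 against 0.825 to 0.915, and Sf3b3, at 0.358 against 0.072 to 0.103, stood high on the KO 4 h array.

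The early change of the snRNP genes had opposite signs in the genotypes: the mean of the array medians was -0.286 in WT and 0.147 in KO, a difference of -0.433, with the 3 arrays of each genotype on its own side of 0. The difference was not tested.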

How the results depend on the processing

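The counts of the 48 members called moved as follows, given without the share of all genes called under each setting. A count alone does not tell a loss among members from a loss over all genes. At 0 h, 7 differed between genotypes; this became 3 after quantile normalization, 3 with array width scaled and 0 with only the contrasted groups, and ran from 2 to 8 as each array was left out (3 without WT 0 h replicate 1, 4 without KO 0 h replicate 2, 2 without KO 0 h replicate 3). In WT late, 5 became 3 with array width scaled and 2 with only the contrasted groups, and 3 to 7 with an array left out. With an array left out, 8 became 3 to 10 in KO late, and 0 became 0 to 1 in WT early (1 without WT 0 h replicate 2). In the late mean, 17 became 11 with array width scaled and 12 to 18. The 14 genotype differences over the windows became 10 to 16. In KO late the split of 0 higher and 8 lower became 2 and 9 after quantile normalization, 3 and 6 with array width scaled and 1 and 6 without centring.

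With 1 probe per gene the late mean of Hnrnpa2b1 turned to 0.004, and with probes of at least 1 value in each group that of Hnrnph1 turned to 0.406. The causes were not tested. Of 51 calls, 18 were kept under all alternatives and 30 whichever array was left out. With a replicate block the counts were 5, 4, 6, 13 and 11 for 0 h, WT late, KO late, late mean and windows. Deviations of same-numbered 0 h arrays had r of -0.0122 to 0.0118, and those of heated arrays of the same time -0.0241 to 0.045. With so few arrays, these r values cannot decide whether a number or time stands for a shared batch. Heated times have 1 array per genotype, and a ratio to a pool gives no absolute level.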

Other observations

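Probes that list a member with a neighbouring gene were summarised apart, a check chosen after seeing the data. The probe shared by Hnrnpab and Phykpl had a late mean of 0.16 ± 0.20 (SE; limma adjusted p = 0.609), where Hnrnpab alone had -0.48 ± 0.11 (SE; limma adjusted p = 0.00587). The probe shared by U2af1l4 and Igflr1 had -0.17 ± 0.15 (SE; limma adjusted p = 0.436), where U2af1l4 alone had -0.40 ± 0.13 (SE; limma adjusted p = 0.0374). What these probes detect was not tested.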
